A study of Homo sapiens with 6 samples.

Results

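ATP6V0D2 and MAL2 are 2 genes on the long arm of human chromosome 8, 33.0 Mb apart. They are described here through 4 rows of a table of read counts per gene: the rows ATP6V0D2 and MAL2, and the rows AC023194.3 and MAL2-AS1, which lie over them on the opposite strand. The 4 rows were chosen by their read counts among 59087, since the counts of AC023194.3 and MAL2-AS1 were higher in both THUMPD2 knockout lines than in wild type (WT), so that difference is given as a description, with no test. A filter on low counts kept 14184 rows for testing, among them AC023194.3 and MAL2-AS1. The rows ATP6V0D2 and MAL2 had too few reads to pass it.

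The cells were HEK293T, a line from human embryonic kidney, and RNA was sequenced from the THUMPD2 knockout line KO1, the THUMPD2 knockout line KO2 and WT cells, with 2 libraries each. THUMPD2 encodes a methyltransferase of the U6 RNA of the spliceosome, and the study asked which transcripts its loss alters. The labels give no agent, time or further allele, do not say whether a knockout line is a clone, and name 1 WT, so an effect of the knockout and any other difference between a line and WT cannot be told apart. The labels do not say that the 2 libraries of a group are separate cultures. The p-values given here rest on the spread among these libraries and may reflect technical variation alone.

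ATP6V0D2 encodes d2, an isoform of the d subunit of the vacuolar-type proton ATPase (V-ATPase). In this pump the d subunit sits between the membrane ring of the V0 sector, which carries protons, and the central stalk of the V1 sector, which splits ATP. The sister gene ATP6V0D1 encodes the widely used isoform d1, whereas d2 is known from osteoclasts, macrophages and acid-secreting kidney cells. MAL2 encodes a membrane proteolipid of the MARVEL family, needed in hepatocytes and other polarised epithelial cells for the transport of proteins across the cell to the apical surface.

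Library totals ran from 7414339 to 7539788 reads in KO1, from 7926552 to 8391143 in KO2 and from 7619064 to 8085598 in WT, whereas the design text names over 240 M reads per line or library. Between the libraries of a group, chi-square over its degrees of freedom was 3.62 in KO1, 2.19 in KO2 and 2.32 in WT, above the 1 that counting noise gives. The targeted gene had 3 reads or fewer in each library and did not check the genotype labels. Of 8 HEK293T markers none was at 0 throughout, although NES and PAX2 had 5 reads or fewer in each library, and the vimentin signal lay in VIM-AS1, the row over VIM, with 23367 to 47482 reads. In this table a gene's reads often stand in the row on the other strand. A gene with no row on the other strand may then show few reads or none, so low counts need not mean low expression. Over 1904 pairs of a protein-coding gene and a row sharing at least 100 exonic bases with it, each pair with at least 50 reads in every group, the gene's own row held a median of 5.2% of the pair's reads in KO1, 5.88% in KO2 and 5.0% in WT. The library kit keeps strand, and the strand setting used for counting is not given in the sources used here. A symbol described below as higher or lower therefore means the row so named, and a row that shares at least 100 exonic bases with a gene on the other strand is given as lying over it.

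ATP6V0D2 (ENSG00000147614.3) spans chr8:85987323-86154228 on the plus strand of GRCh38 in GENCODE version 29, with 3010 exonic bases in 13 blocks. AC023194.3 (ENSG00000253675.1) is annotated as an antisense RNA at chr8:86098965-86154225 on the minus strand. It has 502 exonic bases in 3 blocks of 119, 180 and 203 bases, and all 502 lie over ATP6V0D2 exons, with 383 of them in the last exon block of ATP6V0D2. They cover 16.7% of the exonic bases of ATP6V0D2, so most exonic bases of the gene have no exon of AC023194.3 over them.

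AC023194.3 was read in all 4 knockout libraries and in neither WT library. It had 115 and 92 reads in KO1, 30 and 31 reads in KO2, and 0 and 0 reads in WT. In CPM, the count scaled to a common library size with TMM factors, it averaged 14.2 ± 1.64 in KO1, 3.61 ± 0.0483 in KO2 and 0 in WT (SD, n = 2 each). The order of the levels was KO1, KO2, WT. Because WT had no reads, the fold is a lower bound, computed against 3 reads over the WT group. AC023194.3 was at least 72.9-fold higher in KO1 and at least 18.5-fold higher in KO2 than in WT. These bounds take the knockout counts as measured. With their counting error too, the 95% counting interval of the ratio began at 58.8 in KO1 and at 14.6 in KO2. Such intervals allow for counting error alone, because without molecular identifiers the reads need not be independent molecules.

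Among all rows, 279 had no WT reads and at least 1 read in every knockout library, 12 of these had at least 10 and 4 had at least 30. AC023194.3 is among the 4, which describes the counts it was chosen by and supports nothing further.

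The row ATP6V0D2 itself stayed near 0. It had 0 and 0 reads in KO1, 6 and 7 reads in KO2, and 1 and 0 reads in WT. The KO2 libraries stood above all others, at 0.769 ± 0.0556 CPM (SD, n = 2), while KO1 did not exceed WT. The ratio of KO2 to WT was 11.8, with a 95% counting interval of 1.78 to 503. No fold is given for KO1 against WT, since both were at or under 3 reads.

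The order of the lines thus differed between the row ATP6V0D2 and the row over it. The row ATP6V0D2 held 0 of the pair's 207 reads in KO1, where the exact Clopper-Pearson 95% interval of the share ended at 1.77%. In KO2 it held 13 of 74 reads, a share of 17.6% (exact Clopper-Pearson 95% interval 9.7 to 28.2). In WT the pair had 1 read in all.

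MAL2 (ENSG00000147676.13) spans chr8:119165034-119245673 on the plus strand, with 3430 exonic bases in 8 blocks. MAL2-AS1 (ENSG00000253972.5) is annotated as a long intergenic RNA at chr8:119215111-119246848 on the minus strand, with 1515 exonic bases in 8 blocks. Of these, 202 bases in blocks of 36 and 166 lie over MAL2 exons, all in the last exon block of MAL2. One further block of 119 bases lies beyond the end of MAL2, and the others fall in its introns. MAL2-AS1 thus covers only 5.89% of the exonic bases of MAL2, and 13.3% of its own exons lie over those of MAL2. Its reads therefore need not lie over MAL2 exons, which counts per row do not show.

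MAL2-AS1 was read in every library, with few reads in WT. It had 52 and 54 reads in KO1, 134 and 130 reads in KO2, and 4 and 3 reads in WT. In CPM it averaged 7.29 ± 0.498 in KO1, 15.6 ± 0.907 in KO2 and 0.458 ± 0.115 in WT (SD, n = 2 each). Here the order of the levels was KO2, KO1, WT. The log2 fold change against WT was 3.95 ± 0.41 in KO1 and 5.05 ± 0.36 in KO2 (± SE from the edgeR fit, n = 2 against 2). As ratios of the group CPM these were 16.0-fold, with a counting interval of 7.5 to 40.8, and 34.4-fold, with an interval of 16.4 to 86.3.

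The row MAL2 had reads in the knockout libraries alone, and few of them. It had 11 and 4 reads in KO1, 3 and 2 reads in KO2, and 0 and 0 reads in WT. The KO1 libraries were both above the KO2 libraries, and the mean levels were 1.02 ± 0.638 CPM in KO1 and 0.298 ± 0.0946 CPM in KO2 (SD, n = 2 each). Against 3 reads over the WT group, with the knockout counts taken as measured, MAL2 was at least 5.28-fold higher in KO1, where the counting interval of the ratio began at 3.79. For KO2 that interval began at 0.835, so the 5 reads did not separate KO2 from WT.

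Here too the gene's own row and the row over it ranked the lines in opposite orders, although few reads set the order of MAL2. MAL2 held 15 of the pair's 121 reads in KO1, a share of 12.4% (7.11 to 19.6). In KO2 it held 5 of 269 reads, a share of 1.86% (0.606 to 4.28). By library the share was 17.5% and 6.9% in KO1, and 2.19% and 1.52% in KO2. The intervals of KO1 library 2 (1.91 to 16.7) and KO2 library 1 (0.454 to 6.27) overlapped. In WT it held 0 of 7 reads.

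**Figure D1:**
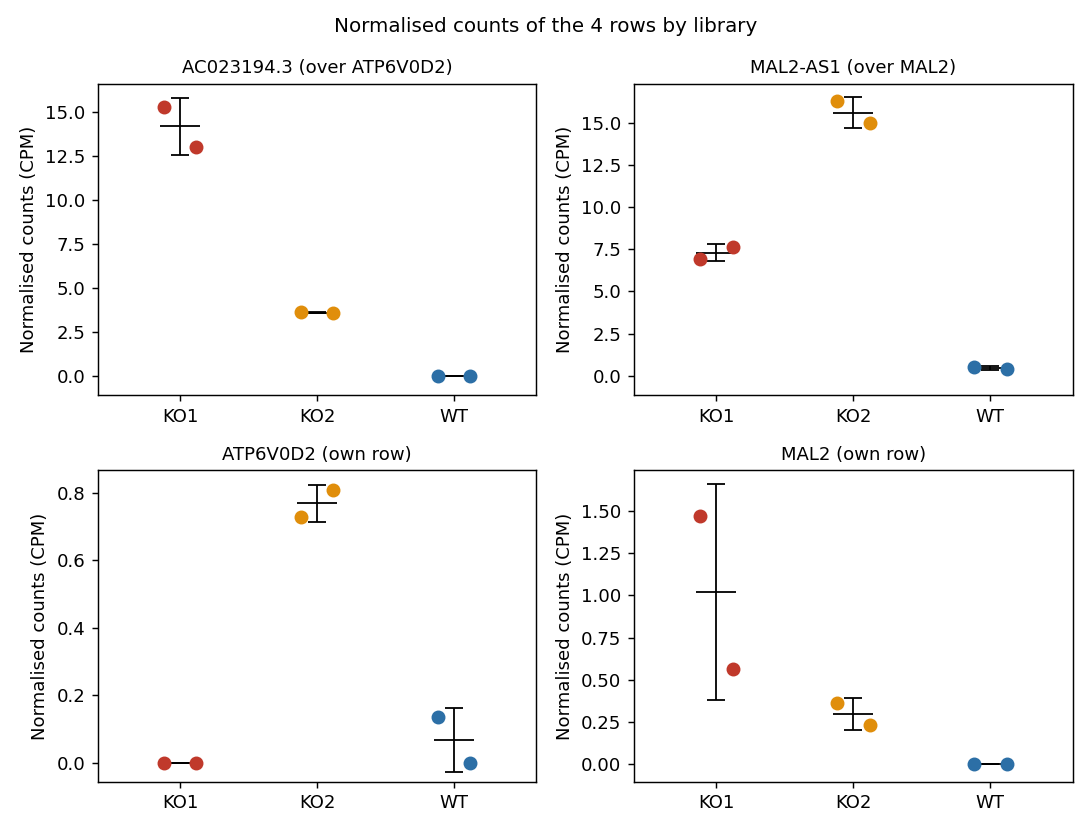
Normalised counts (CPM, vertical axis, with a scale of its own in each panel) of the 4 rows, 1 panel per row, for the groups KO1, KO2 and WT from left to right; each point is 1 library, the wide bar is the group mean and the whiskers are ± 1 SD. AC023194.3 is highest in KO1, at 13.0 and 15.3, and MAL2-AS1 is highest in KO2, with a mean of 15.6, while the rows ATP6V0D2 and MAL2 do not exceed 1.47 in any library.

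Levels of different rows can be compared per length. In CPM per kilobase of exon, AC023194.3 averaged 28.3 in KO1, 7.2 in KO2 and 0 in WT. MAL2-AS1 averaged 4.81 in KO1, 10.3 in KO2 and 0.302 in WT on the same scale. With 502 exonic bases for AC023194.3, it was thus the denser of the pair in KO1, and MAL2-AS1 in KO2 and in WT. The order in KO2 depends on the length used. The authors' FPKM, a count per length and depth, take 119 bases for AC023194.3. In KO2 they were 31.3 and 30.6 for AC023194.3, above 12.6 and 11.6 for MAL2-AS1. The own rows were lower than the rows over them in both knockout lines, with ATP6V0D2 at 0 in KO1, 0.255 in KO2 and 0.0224 in WT, and MAL2 at 0.296 in KO1, 0.0868 in KO2 and 0 in WT.

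The difference between the knockout lines was not used to choose the rows and could be tested. AC023194.3 was higher in KO1 than in KO2 by 1.97 ± 0.27 on the log2 scale (n = 2 against 2), with a Benjamini-Hochberg adjusted p of 6.15e-07 over all tested rows in the edgeR quasi-likelihood test. MAL2-AS1 was lower in KO1 than in KO2, at −1.10 ± 0.23 with an adjusted p of 0.000313 by the same test. As count ratios these were 3.94-fold (2.95 to 5.33) for AC023194.3 and 0.466-fold (0.368 to 0.586) for MAL2-AS1. The 2 tested rows therefore differed between the lines in opposite directions, in a comparison that called 20.4% of all tested rows, 10.1% higher and 10.3% lower. Both calls held in each of the 13 alternative fits, with adjusted p from 3.56e-11 to 4.82e-05 for AC023194.3 and from 2.68e-05 to 0.0192 for MAL2-AS1.

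For the own rows a test between the lines was only possible without the filter on low counts, over 32017 rows. MAL2 was then at 1.75 for KO1 over KO2 on the log2 scale, with an edgeR adjusted p of 0.462, and its count ratio was 3.48 (1.2 to 12.2). ATP6V0D2 had an adjusted p of 0.0701 in the same edgeR fit. Since it had no reads in KO1, it is given no fold, and the counting interval of the KO1 to KO2 ratio ended at 0.381. Neither own row passed the threshold of 0.05.

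Rows that were called higher in both lines mostly had no call between the lines. Among 821 such rows, 79 were also higher in KO1 than in KO2, 126 were lower and 616 had no call, so 205 differed between the lines. The share that differed, 205 of 821, was above the 20.4% of all tested rows called between the lines. The 821 were picked by calls in the same fit, so these shares too are a description only. AC023194.3 was 2nd of the 821 from the top of the KO1 over KO2 fold changes, and MAL2-AS1 was 38th from the bottom. Both are among the 821 through calls against WT. Those calls rest on the counts by which the rows were chosen, so these places are given as a description.

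**Figure D2:**
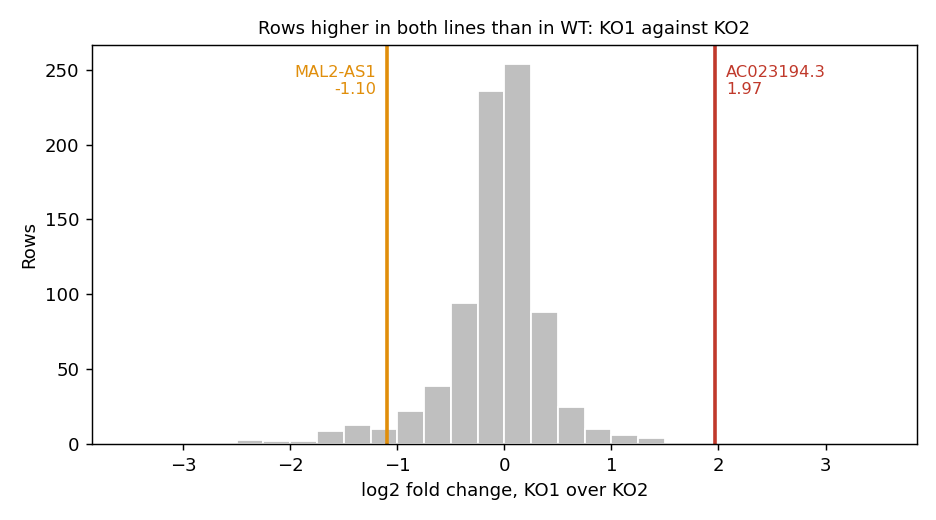
Histogram of the log2 fold change of KO1 over KO2 for the 821 rows called higher in both lines than in WT (horizontal axis) by number of rows (vertical axis), with lines at AC023194.3 and MAL2-AS1. AC023194.3 at 1.97 and MAL2-AS1 at −1.10 lie on opposite sides of the bulk of the rows.

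Rows around both genes were next compared with WT, to set the values of the region beside those of the genes. Within 1 Mb of ATP6V0D2 lay 47 placed rows without the members, of which 26 had no reads and 11 were tested. None of the 11 was called in both lines, where 5.79% of all tested rows were called higher and 7.72% lower (821 and 1095 rows, against 1019 and 901 with upper-quartile factors). Their median log2 fold change was 0.00 in KO1 and −0.27 in KO2, beside 0.01 and 0.02 over all tested rows.

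In KO1 against WT, 1 of the 11 was called higher and 0 lower, beside 10.4% and 13.3% of all tested rows (1469 and 1881 rows, against 1941 and 1549 with upper-quartile factors). It was CA3, a carbonic anhydrase gene 538 kb before ATP6V0D2 that lies over CA3-AS1, with 16 and 27 reads in KO1, 8 and 5 in KO2, and 8 and 8 in WT. CA3 was at 1.50 ± 0.56 in KO1 (adjusted p 0.0465, edgeR), and was not called without KO1 library 2 (1.02), WT library 1 (1.55) or WT library 2 (1.44). That call also ended with DESeq2 (adjusted p 0.303), and in edgeR with no filter (0.0557) and with the replicate block (0.07). CA3 was also higher in KO1 than in KO2, at 1.92 ± 0.57 (adjusted p 0.0132, edgeR). That call ended without KO1 library 2 (1.45) and without KO2 library 2 (1.59). CA2, a carbonic anhydrase gene of osteoclasts and acid-secreting kidney cells 506 kb before ATP6V0D2, had 34 and 13 reads in KO1, 12 and 7 in KO2, and 9 and 14 in WT. It was called in neither line against WT, at 1.10 ± 0.51 in KO1 and −0.40 ± 0.58 in KO2. It was higher in KO1 than in KO2 by 1.49 ± 0.53 (adjusted p 0.0398, edgeR). It was not called without KO1 library 1 (0.70) or KO2 library 2 (1.12), or with the replicate block (1.46).

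In KO2 against WT, 0 of the 11 were called higher and 4 lower, beside 13.6% and 15.4% of all tested rows. CA3-AS1, over CA3, fell, at −1.02 ± 0.24 in KO2. AC011773.1 and RBIS, both over E2F5, fell, at −0.30 ± 0.07 and −0.27 ± 0.08, and RMDN1, over the ubiquitin ligase gene WWP1, was at −0.49 ± 0.17. The adjusted p by edgeR ran from 0.00135 for CA3-AS1 to 0.0298 for RMDN1. The call of CA3-AS1 held in each fit without 1 library. AC011773.1 was not called without KO2 library 2 (−0.26) or WT library 1 (−0.25), RBIS not without KO2 library 1 (−0.23) or WT library 1 (−0.26), and RMDN1 in no fit without 1 KO2 or WT library (−0.50 to −0.47) and not with DESeq2 (−0.51). The remaining tested rows, E2F5, AC011773.3, WWP1, CPNE3 and CNGB3, were called in neither line, with values between −0.14 and 0.08 in KO1 and between −0.04 and 0.83 in KO2.

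Within 1 Mb of MAL2 lay 25 placed rows without the members, and only 2 were tested. DSCC1, a gene of sister chromatid cohesion, was called in neither line, at 0.17 ± 0.24 in KO1 and 0.29 ± 0.23 in KO2. AP005717.1, over the mTOR inhibitor gene DEPTOR, fell in KO2, at −0.86 ± 0.20 (adjusted p 0.00102, edgeR), and was not called in KO1, at −0.39 ± 0.20. These log2 fold changes are small beside those of MAL2-AS1 against WT.

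With the window widened to 5 Mb, 2 of 26 tested rows around ATP6V0D2 and 4 of 22 around MAL2 were called higher in both lines. None was lower, and over all tested rows 5.79% were higher and 7.72% lower. Median log2 fold changes in the window were 0.09 in KO1 and 0.08 in KO2 around ATP6V0D2, and 0.17 and 0.38 around MAL2. Of the 6 called rows 1 was near the size of the members, SLC30A8, which encodes a zinc transporter of insulin granules and was named after its values were seen. SLC30A8 lies 1990 kb before MAL2, with no gene opposite, and had 76 and 64 reads in KO1, 73 and 37 in KO2, and 4 and 1 in WT. It was higher by 4.82 ± 0.50 in KO1 and by 4.26 ± 0.52 in KO2, with adjusted p of 9.86e-10 and 2.85e-08 by edgeR. Over 450 tested rows of chromosome 8, 32 were higher and 17 lower in both lines, beside 5.79% and 7.72% of all tested rows. The chromosome 8 medians were 0.07 in KO1 and 0.13 in KO2.

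**Figure D3:**
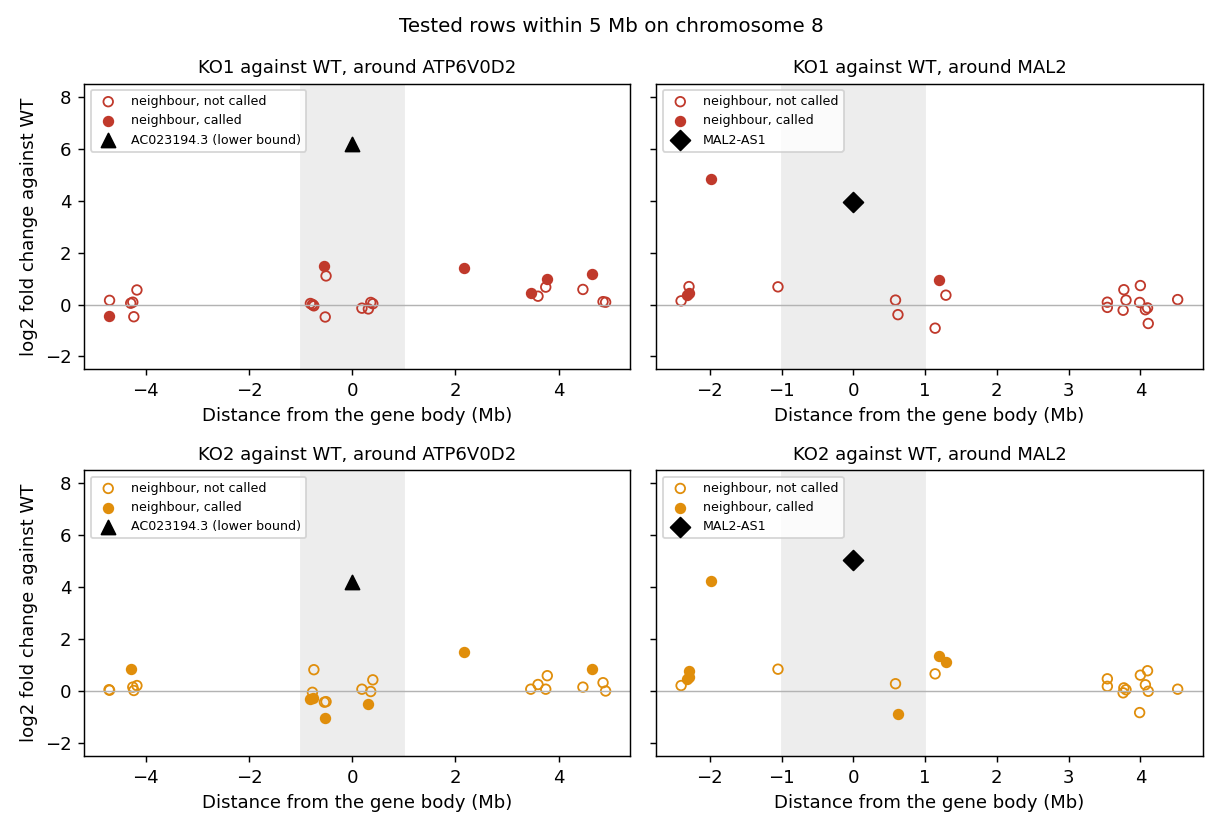
Log2 fold change against WT (vertical axis) of every tested row within 5 Mb of ATP6V0D2 and of MAL2, by distance from the gene in Mb (horizontal axis), in KO1 (upper panels) and in KO2 (lower panels); filled points are called rows, the shaded band is 1 Mb to either side, and the member rows are in black, with AC023194.3 at its lower bound. Most rows lie near 0, with AC023194.3 at 6.19 in KO1 and 4.21 in KO2 and MAL2-AS1 at 3.95 and 5.05.

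The other genes of the V-ATPase were examined next, as the complex that d2 would join. A list of 38 genes of the V-ATPase, its assembly factors and its regulators, without ATP6V0D2, was read by row name and, where a tested row lay over a listed gene, through that row. By row name 21 were tested, 1 was higher in both lines and 1 lower, with median log2 fold changes of −0.06 in KO1 and 0.03 in KO2. Read through rows over the genes, 15 were tested, 1 was higher and 2 were lower, with medians of −0.01 and −0.12. Over all tested rows 5.79% were higher and 7.72% lower, with medians of 0.01 and 0.02.

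The sister gene ATP6V0D1, with no gene opposite, had 16 and 9 reads in KO1, 15 and 20 in KO2, and 14 and 7 in WT. Neither line was called, with 0.32 ± 0.56 in KO1 and 0.59 ± 0.54 in KO2. The groups overlapped, and the counts would not show a modest change.

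Among the rows of the a and c subunits of V0, the 1 called in both lines lay over ATP6V0A2, which encodes an a subunit of the proton channel. AC117503.4, over 292 exonic bases of ATP6V0A2, had 935 and 924 reads in KO1, 882 and 864 in KO2, and 529 and 599 in WT. It was higher by 0.80 ± 0.08 in KO1 and 0.50 ± 0.08 in KO2, with adjusted p of 6.94e-10 and 7.43e-06 by edgeR. The row ATP6V0A2 itself was called in neither line, at 0.77 ± 0.59 in KO1 and 0.38 ± 0.60 in KO2. The a subunit of acid-secreting cells, ATP6V0A4, had 2 reads in WT library 1 and none elsewhere. TMEM213, which lies over 153 exonic bases of ATP6V0A4 and more of KIAA1549, was also called in neither, at 0.04 in KO1 and −0.22 in KO2.

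The osteoclast a subunit gene TCIRG1 had 8 and 4 reads in KO1, 7 and 7 in KO2, and 9 and 6 in WT, too few to test. ATP6V0A1 had 9 and 5 reads in KO1, 7 and 3 in KO2, and 5 and 15 in WT, and it was not tested either. ATP6V0C, for the ring subunit c, was listed at 0 in every library. TCIRG1, ATP6V0A1 and ATP6V0C have no row over them, so their counts need not show their levels. ATP6V0B, for the ring subunit c″, was at 0.62 ± 0.39 in KO1 and 0.01 ± 0.41 in KO2, and AL357079.2 over it, with 2212 to 2548 reads, was at 0.02 and −0.06. None of these was called.

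ATP6V0E2, an isoform of the small V0 subunit e, was lower in both lines. It had 169 and 162 reads in KO1, 187 and 184 in KO2, and 277 and 288 in WT, and fell, at −0.69 ± 0.14 in KO1 and −0.74 ± 0.13 in KO2 (adjusted p 0.000161 and 3.7e-05, edgeR). The row over 864 of its exonic bases, ATP6V0E2-AS1, was at −0.24 ± 0.07 and −0.46 ± 0.07, and its KO1 call ended without WT library 1 (−0.23) and with upper-quartile factors (−0.17). KCP, over ATP6V1F of the V1 stalk, was at −0.22 ± 0.06 in KO1 and −0.59 ± 0.06 in KO2, and its KO1 call also ended without that library (−0.19) and with those factors (−0.14). OXR1, a gene linked to V-ATPase regulation and the 1 row name called higher in both lines, was chosen after its values were seen. It had 21 and 32 reads in KO1, 32 and 33 in KO2, and 11 and 14 in WT, at 1.16 ± 0.42 and 1.24 ± 0.42. Its call in both lines ended without any 1 of KO1 library 2 (0.78 in KO1), KO2 library 1 (1.23 in KO2), KO2 library 2 (1.26 in KO2), WT library 1 (1.05 and 1.12) and WT library 2 (1.29 in KO1), with DESeq2 (1.18 and 1.23), and with no filter (1.17 in KO1).

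**Figure D4:**
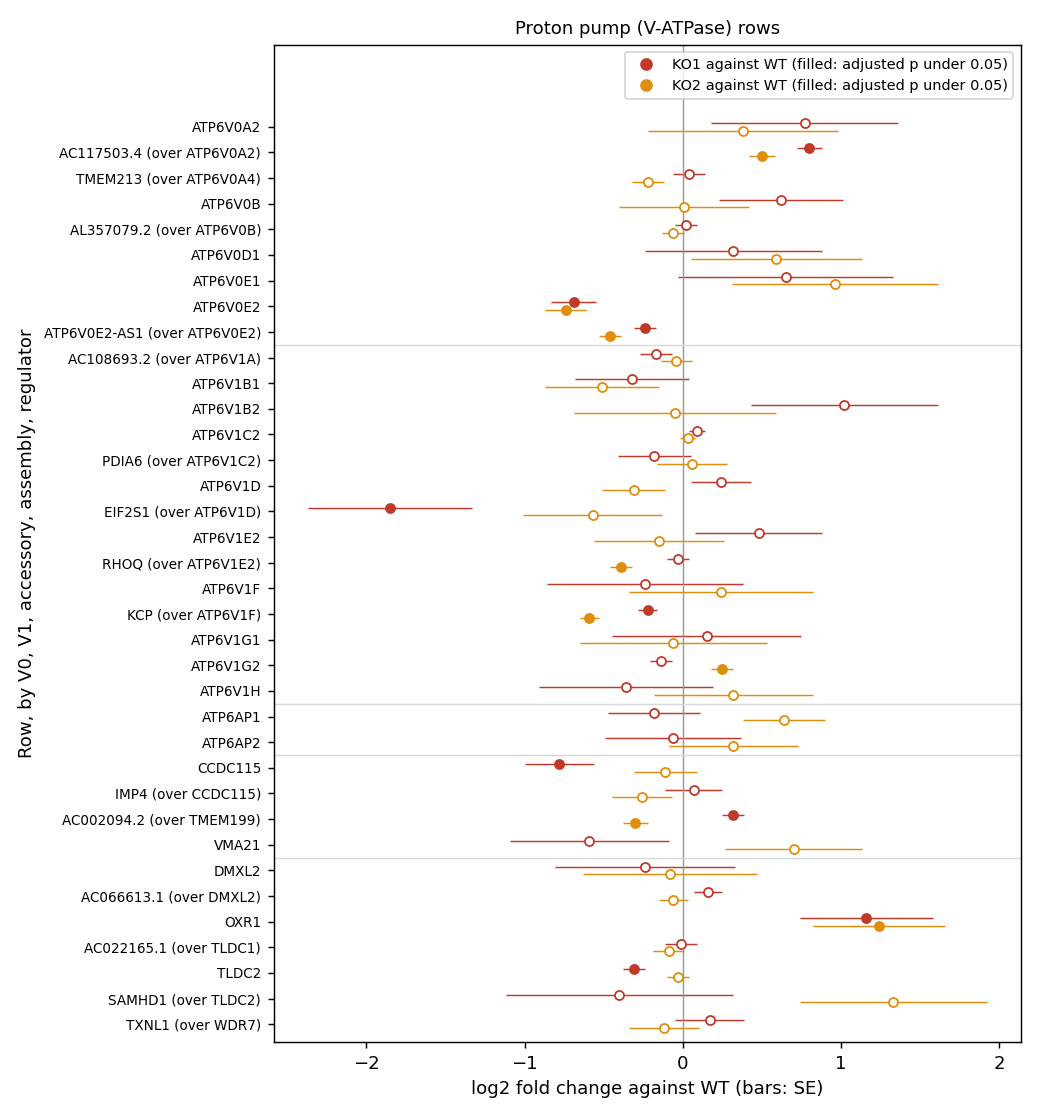
Log2 fold change against WT (horizontal axis) in KO1 and in KO2 of the tested V-ATPase rows other than AC023194.3, by row name and by the row over the gene; filled points are called and bars are ± 1 SE. The values lie on both sides of 0, from EIF2S1, over ATP6V1D, at −1.85 in KO1 to SAMHD1, over TLDC2, at 1.33 in KO2, and many bars cross 0.

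MAL2 belongs to the MARVEL family of membrane proteins, of which 25 other genes were listed. By row name 17 were tested, and 0 were higher in both lines and 2 lower, beside 5.79% and 7.72% of all tested rows. The 17 had medians of 0.09 in KO1 and 0.04 in KO2. CMTM8 was at −0.71 ± 0.20 in KO1 and −1.14 ± 0.20 in KO2, with 85 and 72 reads in KO1, 61 and 74 in KO2, and 143 and 127 in WT. SYNGR2, a synaptogyrin, was at −0.75 ± 0.23 and −0.94 ± 0.23. The call of CMTM8 in KO1 ended without KO1 library 2 (−0.63) and WT library 1 (−0.57), and that of SYNGR2 without KO1 library 1 (−0.63) and WT library 1 (−0.74). With DESeq2 both KO1 calls also ended (−0.70 and −0.75). The closest relatives of MAL2 were all but unread by row name: MAL had 1 read in KO2 and none elsewhere, and MALL had 1 read in WT and none elsewhere. Neither has a row over it, so these counts need not show their levels. Of the rows over listed genes 5 were tested, 0 were higher and 1 lower, with medians of −0.28 and −0.02. That row was AC008440.2, over MYADM, at −0.46 ± 0.08 in KO1 and −0.24 ± 0.08 in KO2. It was not called in KO2 without KO2 library 1 (−0.21), KO2 library 2 (−0.25), WT library 1 (−0.27) or WT library 2 (−0.20), nor with DESeq2 (−0.25) or upper-quartile factors (−0.20).

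A list of 26 genes of apical sorting, which holds the partners and cargo machinery of MAL2, had 14 tested by row name. In both lines 0 were called, where 5.79% of all tested rows were higher and 7.72% lower. The 14 had medians of 0.01 in KO1 and 0.10 in KO2. Another 4 were tested through a row over the gene, 0 were higher and 1 lower, with medians of −0.10 in each line. That row was HDDC2, over 191 exonic bases of TPD52L1, a gene of the TPD52 family whose proteins bind MAL2. HDDC2 had 50 and 60 reads in KO1, 165 and 166 in KO2, and 1005 and 1052 in WT. It fell, at −4.14 ± 0.13 in KO1 and −2.77 ± 0.11 in KO2 (adjusted p 2.2e-24 and 2.13e-21, edgeR), and was lower in KO1 than in KO2 by a log2 fold change of −1.37 ± 0.16 (adjusted p 1.03e-08).

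Further lists cover the settings in which d2 and MAL2 are known. Of 29 epithelial genes, 12 were tested by row name. In both lines 0 were higher and 1 lower, beside 5.79% and 7.72% of all tested rows. The 12 had medians of 0.10 in KO1 and −0.13 in KO2. The lower row was GRHL3, an epithelial transcription factor, at −1.52 ± 0.49 and −1.30 ± 0.47, whose call in both lines ended without any 1 of the 6 libraries (−1.65 to −1.40 in KO1 and −1.46 to −1.15 in KO2), with DESeq2 (−1.53 and −1.33) and with no filter (−1.32 in KO2). In 7 cases a row over the gene was tested, 1 was higher and 2 were lower, with medians of −0.34 and 0.29. ELF3-AS1, over the epithelial transcription factor gene ELF3, rose by 0.45 ± 0.06 and 0.58 ± 0.06. AC099314.1, which lies over the E-cadherin gene CDH1, fell, at −1.72 ± 0.26 and −1.53 ± 0.25. NFATC3, which lies over 149 exonic bases of the splicing regulator gene ESRP2 and over far more of AC020978.5, had 8 and 12 reads in KO1, 8 and 4 in KO2, and 106 and 128 in WT. It fell, at −3.45 ± 0.33 and −4.39 ± 0.36.

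Of 13 genes of the acid-secreting intercalated cells of the kidney, 7 were tested by row name. In both lines 0 were higher and 1 lower, beside 5.79% and 7.72% of all tested rows. The 7 had medians of −0.32 in KO1 and −0.29 in KO2. The lower row was SLC26A4, the anion exchanger pendrin, over SLC26A4-AS1. It had 6 and 3 reads in KO1, 3 and 4 in KO2, and 30 and 27 in WT, and fell, at −2.56 ± 0.58 and −3.12 ± 0.61. Rows over 4 of the genes were tested and 0 were called, with medians of 0.01 and 0.14.

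Of 21 osteoclast genes, 9 were tested by row name. In both lines 0 were higher and 1 lower, beside 5.79% and 7.72% of all tested rows. The 9 had medians of 0.03 in KO1 and −0.40 in KO2. MMP9, a matrix protease over SLC12A5-AS1, was at −0.74 ± 0.27 and −1.37 ± 0.29. The KO1 call ended without KO1 library 1 (−0.69), KO1 library 2 (−0.78) and WT library 1 (−0.47). It also ended with DESeq2 (adjusted p 0.354) and in edgeR with upper-quartile factors (0.0754), no filter (0.0992), the 1 CPM filter (0.0512) and the replicate block (0.0563). Rows over 2 of the genes were tested and 0 were called in both lines, with medians of −0.55 and 0.18.

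Lysosomes are acidified by the V-ATPase, and of 37 lysosomal genes 22 were tested by row name. In both lines 0 were higher and 2 lower, beside 5.79% and 7.72% of all tested rows. The 22 had medians of 0.01 in KO1 and −0.20 in KO2. In KO2 against WT, 8 of the 22 were lower and 0 higher, beside 15.4% and 13.6% of all tested rows. In KO1 against WT, 3 were lower and 1 higher, beside 13.3% and 10.4%. Rows over 13 of the genes were tested, 0 were higher and 2 lower, with medians of −0.06 and −0.23. SGSH, a heparan sulfate degrading enzyme over CARD14, fell, at −0.68 ± 0.16 and −0.64 ± 0.16. CARD14, which lies over SGSH and over more of AC087741.1, was at −0.43 ± 0.09 and −0.27 ± 0.08, and its KO2 call ended without KO2 library 1 (−0.24), KO2 library 2 (−0.28) and WT library 1 (−0.24), and with DESeq2 (−0.28). AC068580.3, over the protease gene CTSD, was at −0.22 ± 0.06 and −0.45 ± 0.06. Its KO1 call ended without KO1 library 1 (−0.13) and WT library 1 (−0.20), and with upper-quartile factors (−0.14).

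Markers of other cells in which these genes are known were summed by row name, and in none of the 4 lists did both knockout lines lie above WT. Over 10 osteoclast and macrophage markers the summed counts ran from 212 to 213 in KO1, from 250 to 265 in KO2 and from 239 to 272 in WT, with CALCR at 0 in all 6 libraries. For 5 intercalated cell markers they ran from 25 to 41 in KO1, from 30 to 34 in KO2 and from 56 to 75 in WT, with FOXI1 at 0. Over 3 hepatocyte markers they ran from 58 to 78 in KO1, from 65 to 82 in KO2 and from 68 to 69 in WT, with ALB at 0. The sums for 2 lymphocyte markers were 100 to 109 in KO1, 201 to 240 in KO2 and 222 to 285 in WT, and none was at 0. These sums come from HEK293T cells, and counts per row do not show which cells the reads came from.

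Rows with the most similar profiles were sought over the 6 libraries among 13784 tested rows of at least 1 CPM on average, each set relative to its own WT mean on the log2 CPM scale. Likeness is the root mean square difference, so 0 would be an identical profile. For AC023194.3 the nearest row was RAC1P9 (0.56), a pseudogene row that may share reads with its parent gene, with 159 and 154 reads in KO1, 67 and 74 in KO2, and 0 and 1 in WT. It was followed by SERTAD4-AS1 over SERTAD4 (0.68), PCAT1 over FAM84B on chromosome 8 (0.77), SPINK5 (0.89) and NCAM1-AS1 over NCAM1, which encodes a neural adhesion protein (0.92). Where a row had no WT reads, as AC023194.3, SPINK5, DPYD-AS1, GRM7-AS3 and THBS2, its distance from the WT mean is set in part by the prior count of 2, so these likenesses and ranks depend on it.

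Nearest to MAL2-AS1 was DPYD-AS1 (0.10), over DPYD, an enzyme gene of pyrimidine breakdown, with 17 and 19 reads in KO1, 47 and 45 in KO2, and 0 and 0 in WT. It was followed by GRM7-AS3 (0.25), the transcription factor gene MAF (0.28), the thrombospondin gene THBS2 (0.31) and AL109930.1 over TSHZ2 (0.34). MAF had 240 and 198 reads in KO1, 329 and 416 in KO2, and 17 and 13 in WT. The profiles of AC023194.3 and MAL2-AS1 were 1.43 apart, which made MAL2-AS1 the 24th nearest row to AC023194.3 and AC023194.3 the 79th nearest to MAL2-AS1.

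**Figure D5:**
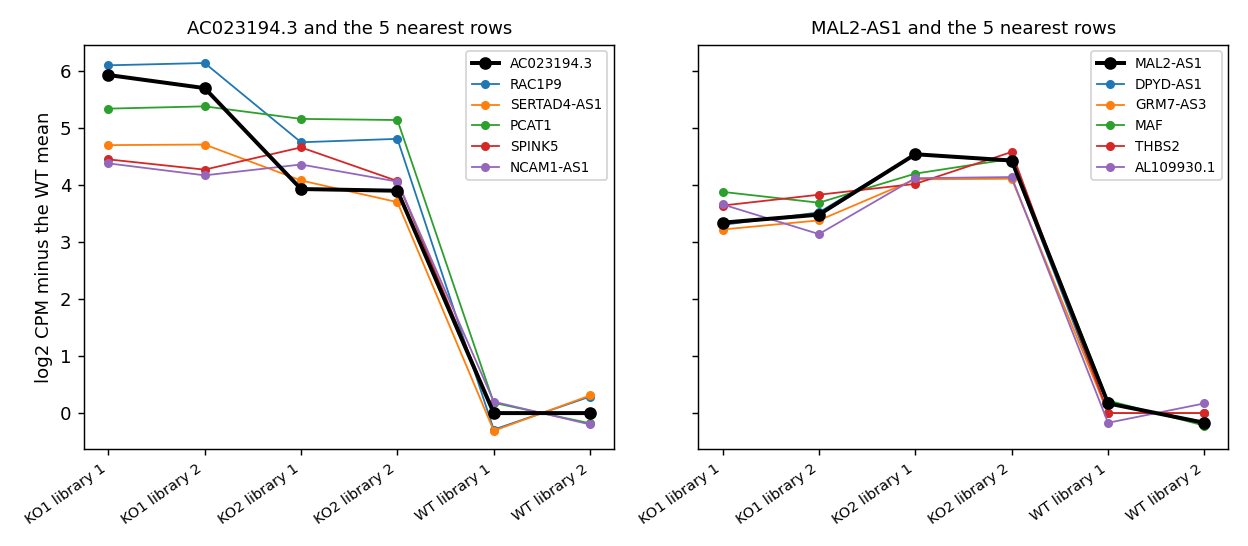
Log2 CPM relative to the WT mean (vertical axis, prior count 2) in each of the 6 libraries, for AC023194.3 and its 5 nearest rows and for MAL2-AS1 and its 5 nearest rows; each line is 1 row. The rows near MAL2-AS1 follow it within a root mean square difference of 0.10 to 0.34, and those near AC023194.3 within 0.56 to 0.92.

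The authors' deposited table holds 11785 rows, of which AC023194.3 and MAL2-AS1 are 2, and compares all 4 knockout libraries with WT. For AC023194.3 the authors' deposited table gives a log2 fold change of 6.79, a p of 0.0164 and a q of 0.0987. For MAL2-AS1 the authors' deposited table gives 4.45, a p of 0.00142 and a q of 0.0242. Its comparison places KO1 and KO2 in 1 group, whereas the rows differed between those lines in opposite directions.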

How the data were processed

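Total RNA of 6 HEK293T libraries was sequenced after directional library preparation, per the labels. The submitters' processing notes name the tools STAR 2.7.1a, Trim Galore, limma and HTSeq 0.6.1p1 and the builds GRCh38.p6 and hg38. No annotation version is given in the sources used here. The authors deposited raw read counts per gene symbol, and every test used these. They also deposited FPKM values, log2 fold changes, and p-values and q-values of the knockouts against WT, per the file headers. FPKM were not used for levels, because the gene size behind them was 119 bases for AC023194.3, against 502 exonic bases in GENCODE version 29. By FPKM the order of AC023194.3 and MAL2-AS1 in KO2 was the reverse of that by CPM per kilobase. AC023194.3 was at 31.3 and 30.6 there, and MAL2-AS1 at 12.6 and 11.6.

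Counts were tested with edgeR 4.0.16 in R 4.3.3 (quasi-likelihood F test, TMM, filterByExpr, 1 fit of 3 groups, no covariate, Benjamini-Hochberg adjustment over 14184 rows, threshold 0.05). The fit had 3 residual and 31.9 prior degrees of freedom and a biological coefficient of variation of 7.57%. The steps were tested on simulated data. Both lines share the WT libraries. Alternatives tried were DESeq2 1.42.0, upper-quartile and RLE factors, other filters, a replicate block, fits of the compared libraries only and leaving out each library.

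Rows were placed with GENCODE version 29 by symbol (56195) or older symbol (114). Another 219 symbols were ambiguous and 2559 were not placed. The members and the 7 lists were chosen with earlier results of these data known. Named rows were the members, their paralogs and V0 partners, up to 4 called rows per list by the smallest p for the mean of the lines, every tested row within 1 Mb, and the 5 nearest profiles of AC023194.3 and of MAL2-AS1. One row that the rule takes from a list is not reported here.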

Additional observations from a re-analysis of the deposited data

Results flagged for a closer look

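The difference between the knockout lines was called by the edgeR quasi-likelihood test, on the log2 scale for KO1 over KO2, for 12 rows among the members, the named rows of the lists that were called in both lines and the rows within 1 Mb. Among the members these were AC023194.3 (1.97) and MAL2-AS1 (−1.10), and both calls held in all 13 alternative fits. KCP, over ATP6V1F (0.37), HDDC2, over TPD52L1 (−1.37), and AC011773.1, over E2F5 (0.34), also kept the call in all 13.

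The other calls between the lines ended without 1 library. AC117503.4, over ATP6V0A2, was at 0.30 and was not called without KO2 library 2 (0.25). ATP6V0E2-AS1 was at 0.22, and was not called without KO1 library 2 (0.16), KO2 library 1 (0.24) or KO2 library 2 (0.19). AC068580.3, over CTSD, was at 0.23, and was not called without KO1 library 2 (0.13) or KO2 library 1 (0.21). RBIS was at 0.27, and was not called without KO1 library 2 (0.20) or KO2 library 1 (0.23). AC008440.2, over MYADM, was at −0.22 and lost its call in 11 of the 13 alternatives. Of the carbonic anhydrase rows before ATP6V0D2, CA3 was at 1.92 and CA2 at 1.49. CA3 was not called without KO1 library 2 (1.45) or KO2 library 2 (1.59), and CA2 not without KO1 library 1 (0.70) or KO2 library 2 (1.12), or with the replicate block (1.46).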

How the results depend on the processing

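With DESeq2 the rows called numbered 1897 in KO1 against WT (3350 by edgeR), 2465 in KO2 against WT (4118), 1778 between KO1 and KO2 (2889) and 1094 in both lines (1916). Listed genes called in both lines by row name numbered 3 with DESeq2 and 9 by edgeR, and 3 to 8 without 1 library, with the lowest count without WT library 1. Read through the row over the gene they numbered 10. Neighbours called in both lines numbered 0 within 1 Mb and 6 within 5 Mb. Without 1 library, the log2 value against WT ran from 5.13 to 6.30 in KO1 and from 3.16 to 4.23 in KO2 for AC023194.3 (a bound), and from 3.71 to 4.22 and from 4.82 to 5.32 for MAL2-AS1. Leaving out a WT library lowers the AC023194.3 bound by construction, since 3 reads are then set against 1 library. Same-numbered libraries did not deviate together strongly, with correlations of −0.0286 to −0.0206. Counting noise lowers such correlations, so they cannot settle whether the numbers pair the libraries. With the replicate block, KO1 over KO2 was 1.96 for AC023194.3 (adjusted p 2.05e-06, edgeR) and −1.10 for MAL2-AS1 (0.000633), and the rows called in both lines numbered 1822, with 8 listed genes among them by row name. With 11 reads or fewer per library, changes in the rows ATP6V0D2 and MAL2 could hardly be shown at this depth.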

Other observations

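Of the partners of MAL2 in the TPD52 family, TPD52L1 was at −1.31 ± 0.38 in KO1 and 0.04 ± 0.33 in KO2 by its own row, with 17 and 11 reads in KO1, 41 and 42 in KO2, and 28 and 46 in WT. This row, over HDDC2, was called lower in KO1 (adjusted p 0.00951, edgeR), a call that ended with DESeq2 (−1.31) and when KO1 library 2 (−1.08) or WT library 2 (−0.97) was left out. It was also lower in KO1 than in KO2, at −1.35 ± 0.38 (adjusted p 0.00786, edgeR), but not called without KO1 library 2 (−1.11) or with DESeq2 (−1.34). TPD52 itself, on chromosome 8, had 5 and 6 reads in KO1, 10 and 11 in KO2, and 7 and 8 in WT, and was not tested. TPD52L1 and TPD52 were named after their values were seen.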
